A study of Bos taurus with 14 samples.

Results

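The enzymes that write and erase DNA methylation and histone marks were examined in longissimus dorsi, a long back muscle, of 14 female cattle sampled at postnatal day 485. They are all genes of the deposited table with reads whose symbols begin with DNMT, TET, SIRT, HDAC, KDM, KMT or SETD followed by the number of a family member, which gave 57 of 18078 rows. The families held 3 DNA methyltransferases (DNMT), 3 methylcytosine dioxygenases (TET), 7 sirtuins (SIRT), 11 histone deacetylases (HDAC), 16 lysine demethylases (KDM), 8 lysine methyltransferases (KMT) and 9 genes named for a SET domain (SETD). The dams of 7 animals had received 100% of what they required between gestation day 158 and parturition (control). Those of the other 7 had been fed less over the same period (restricted), 70% by the series description and 50% by the treatment protocol of the samples, so no percentage is used here. The offspring had feed ad libitum from postnatal day 301. A sample is 1 animal. Whether any of them shared a sire or dam is not in the labels, so p-values measure the spread between these 14 animals.

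DNA methyltransferases add a methyl group to cytosine. DNMT1 copies existing marks onto the new strand at replication, and DNMT3A and DNMT3B place marks at new sites. TET enzymes oxidise methylcytosine, the first step of its removal. On histones, many of the KMT and SETD proteins attach methyl groups to lysines, and many of the KDM proteins take them off. HDAC and sirtuin proteins remove acetyl and related acyl groups, the sirtuins at the cost of NAD. Families are grouped here by gene symbol, not by activity. Transcript levels do not measure the marks or the activity of the enzymes.

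Total counts ran from 13631018 to 17325779 per animal, and all 57 genes passed the filter on low counts. Levels are given as CPM, counts scaled to a common library total, when 1 gene is compared between animals. Different genes are compared as RPKM, which divides CPM by the gene length in kilobases. Orders and shares within families thus depend on the deposited lengths. Muscle fibre markers such as ACTA1 and CKM summed to between 126000 and 173500 CPM in every animal. Control 7, restricted 4 and restricted 7 stood apart in the interferon response, where 14 marker genes summed to 250.4, 198.6 and 503.9 CPM against 21.08 to 64.05 CPM in the other animals. The fit was therefore repeated without these 3 animals.

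DNMT3A was the leading DNA methyltransferase of the muscle in every animal. Its mean level was 10.6 ± 1.17 RPKM (SD, n = 14), against 1.72 ± 0.222 RPKM for DNMT1 and 0.274 ± 0.107 RPKM for DNMT3B. The order DNMT3A, DNMT1, DNMT3B held in all 14 animals without overlap of the ranges. DNMT3A made up 84.2% ± 1.38 of the summed RPKM of the 3 genes, from 80.9% to 86.0% between animals. In single animals its RPKM was 5.51 to 7.01 times that of DNMT1, and 18.3 to 71.1 times that of DNMT3B. DNMT3B rested on 9 to 29 reads per animal.

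TET2 led the dioxygenases in the same way, with 2.33 ± 0.436 RPKM (SD, n = 14), or 80.5% ± 3.76 of the family sum. TET1 was at 0.441 ± 0.166 RPKM and TET3 at 0.135 ± 0.0492 RPKM. TET1 exceeded TET3 in each of the 14 animals although the ranges of the 2 genes overlapped. TET3 stood at the lower end of the tested genes, above only 0.32% of them by RPKM, and rested on 4 to 26 reads per animal.

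**Figure D1:**
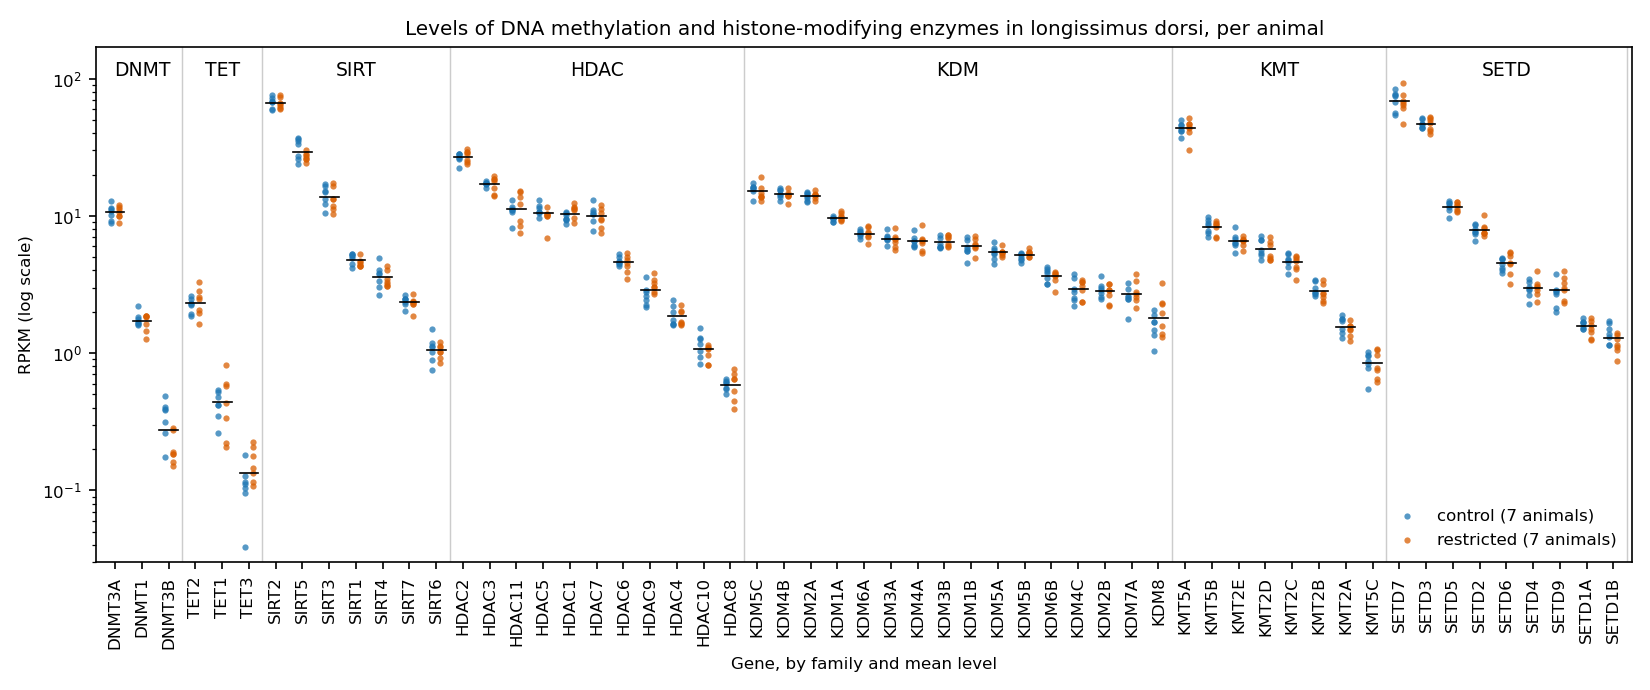
RPKM of the 57 enzymes (log scale), 1 point per animal (blue control, orange restricted) and a black line at the mean over 14 animals, ordered by family and level. DNMT3A, TET2, SIRT2, KMT5A and SETD7 lead their families, and the points of the 2 diet groups lie over each other for nearly every gene.

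Among the sirtuins SIRT2, the mainly cytoplasmic deacetylase of tubulin, was the most abundant at 66.9 ± 5.81 RPKM (SD, n = 14), 55.0% ± 2.92 of the family sum. The mitochondrial members followed, with the desuccinylase SIRT5 at 29.2 ± 4.49 RPKM and the deacetylase SIRT3 at 13.8 ± 2.44 RPKM. SIRT1, the nuclear deacetylase known as a sensor of energy state, was at 4.74 ± 0.418 RPKM. The third mitochondrial member, SIRT4, was at 3.57 ± 0.610 RPKM, and the chromatin-bound SIRT7 and SIRT6 were at 2.36 ± 0.217 and 1.06 ± 0.183 RPKM. SIRT2, SIRT5, SIRT3 and SIRT1 did not overlap with each other over the animals, whereas SIRT4 overlapped with both SIRT1 and SIRT7. SIRT4 was above SIRT7 in 13 of 14 animals.

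In the HDAC family the class I enzymes, most of which act in nuclear corepressor complexes, summed to 54.9 ± 3.15 RPKM. The class IIa enzymes summed to 25.3 ± 1.82 RPKM (SD, n = 14 for both). Class IIa proteins bind the myogenic MEF2 factors and leave the nucleus when phosphorylated. HDAC2 was the first at 26.9 ± 2.31 RPKM and HDAC3, the catalytic subunit of the NCOR complex, the second at 17.0 ± 1.56 RPKM. Next stood HDAC11, HDAC5, HDAC1 and HDAC7, with means from 10.02 to 11.3 RPKM. In this group each gene exceeded its lower neighbour in only 8 of 14 animals, so their order is not resolved. HDAC8 was lowest at 0.589 ± 0.0993 RPKM.

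No demethylase dominated its family. KDM5C, KDM4B and KDM2A stood at 15.3 ± 1.76, 14.4 ± 1.06 and 13.96 ± 0.827 RPKM (SD, n = 14), with overlapping ranges, and KDM5C held 13.7% ± 1.26 of the family sum. KDM5C erases methylation of lysine 4 of histone H3, KDM2A that of lysine 36, and KDM4B that of lysine 9. KDM1A, a flavin-dependent demethylase, followed at 9.71 ± 0.539 RPKM, below KDM2A in all 14 animals. KDM8 was lowest at 1.80 ± 0.565 RPKM.

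Among the methyltransferases KMT5A, the only enzyme known to place a single methyl group on lysine 20 of histone H4, stood at 43.4 ± 5.36 RPKM (SD, n = 14), 58.7% ± 3.16 of its family. KMT5B, which adds further methyl groups there, was at 8.29 ± 0.922 RPKM. KMT2A to KMT2D, large enzymes that methylate lysine 4 of histone H3, ranged from 1.56 RPKM for KMT2A to 5.75 RPKM for KMT2D. KMT2D and KMT2C had the most reads of the family, with means of 1625 and 1075 reads per animal. They also had its longest deposited gene lengths, 17858 and 14788 bases. KMT5A had a mean of 733.3 reads at a deposited length of 1071 bases. SETD7 (69.1 ± 12.3 RPKM) and SETD3 (46.6 ± 4.29 RPKM) led the SETD genes. By CPM their order was the reverse, at means of 124.9 for SETD7 and 142.4 for SETD3, with deposited lengths of 1809 and 3058 bases. SETD7 methylates lysines of histone H3 and of many other proteins, and SETD3 methylates a histidine of actin and is not a histone-modifying enzyme in that role. SETD1A and SETD1B, which methylate the same lysine as KMT2 proteins, were at 1.57 ± 0.174 and 1.29 ± 0.231 RPKM.

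The enzymes had smaller spreads between animals than most genes tested, and were also more abundant, with a median of 23.3 CPM against 12.1 CPM. Spread falls with abundance in count data, and the part of abundance in the comparison was not tested. The coefficient of variation (CV) of their CPM over the 14 animals had a median of 12.9%, against 16.1% over the 12187 genes tested, and lay below the latter for 39 of the 57 (68.4%). It was smallest for KDM1A (5.55%), KDM2A (5.93%) and KDM5B (6.52%). KDM1A ran from 25.02 CPM in control 2 to 30.2 CPM in restricted 3, a span of 1.21 times. Only 0.689% of the tested genes had a CV as low as that of KDM1A. The CV was largest for DNMT3B (39.1%), TET1 (37.8%), TET3 (36.5%) and KDM8 (31.3%). All 4 had means under 5 CPM, with 16.5, 44.9, 14.1 and 55.0 mean reads per animal in this order. The other 5 enzymes under 5 CPM had CVs from 9.18% (SIRT7) to 19.7% (KMT5C). They had more reads than DNMT3B and TET3, with means from 29.9 (SIRT6) to 66.5 (SIRT7). The part of read number in these CVs was not tested. The highest and lowest animals differed by more than 2 times for 8 of the 57 genes (14%), against 37.9% of the genes tested.

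**Figure D2:**
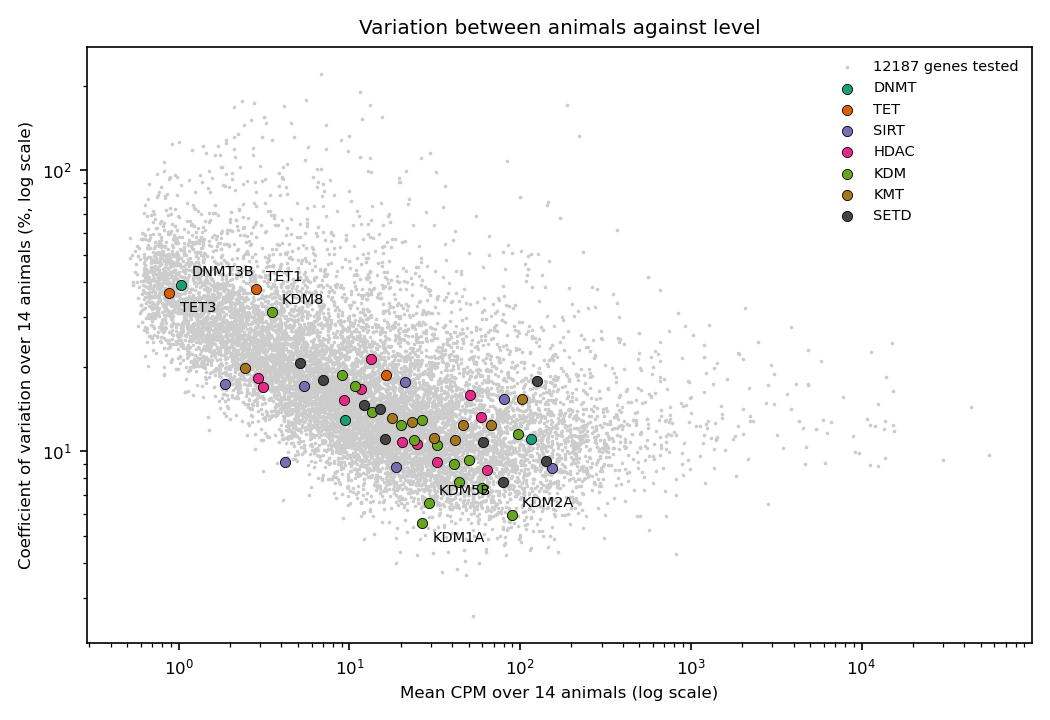
Coefficient of variation over 14 animals (%) against mean CPM, both on log scales, for the 12187 genes tested (grey) and the 57 enzymes (coloured by family). KDM1A, KDM2A and KDM5B lie at the lower edge, and DNMT3B, TET1, TET3 and KDM8 lie highest among the enzymes.

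The diet comparison asked whether any of these enzymes differed in adult muscle with the feeding of the dam. In edgeR (quasi-likelihood test, Benjamini-Hochberg adjustment over all genes), 0 of the 57 enzymes passed an adjusted p of 0.05, as did 0 of the 12187 genes tested (0%). At an unadjusted p under 0.05 there were 3 enzymes, DNMT3B, SETD1B and SIRT5, all with lower values in restricted offspring. Of all genes tested 4.25% reached this level, 2.08% with lower and 2.17% with higher values. A count of 3 of 57 is thus near the background. The exact test of edgeR, DESeq2 and voom of limma placed 0 enzymes past the adjusted threshold (0%, 0.00821% and 0% of all genes), and 1, 2 and 3 at an unadjusted p under 0.05, against 3.68%, 4.33% and 4.81% of all genes. Without the 3 interferon-high animals 2 enzymes had an unadjusted p under 0.05 by edgeR (4.99% of 12270 genes), and they were others, HDAC1 with a ratio of 1.16 and KDM5C with 0.881. None of the 57 enzymes had diet groups without overlap in CPM (0.0574% of all genes).

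DNMT3B had the smallest p and the widest ratio of the 57. In controls it ran from 0.665 CPM (control 3) over a median of 1.44 to 1.82 CPM (control 7), and in restricted offspring from 0.566 CPM (restricted 7) over a median of 0.693 to 1.07 CPM (restricted 1). All 7 restricted animals lay below the control median, but control 3 and control 5 lay within the restricted range. The same position was seen for HDAC10, at a ratio of 0.871 and an unadjusted p of 0.198 by edgeR. The share of all genes with all 7 on 1 side is not given, here or for the enzymes below. For DNMT3B the group means were 1.30 ± 0.386 and 0.768 ± 0.200 CPM (SD, n = 7 each). The ratio of restricted over control was 0.59, with 95% limits of 0.419 and 0.832. In reads, the range was 11 to 29 in controls and 9 to 17 in restricted offspring. The unadjusted p by edgeR was 0.00489 and the adjusted p was 1. Over 26 alternative analyses the ratio stayed below 1 and the adjusted p ran from 0.801 to 1. Control 7 and restricted 7, at the 2 extremes, were among the interferon-high animals, and without the 3 of them the ratio was 0.679 with an unadjusted p of 0.0533. Among animals whose titles end in A the mean was 1.23 CPM in 5 controls and 0.677 CPM in 4 restricted animals. Among those ending in B it was 1.48 CPM in 2 controls and 0.888 CPM in 3 restricted animals.

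The other methyltransferases of DNA showed no such shift. DNMT3A had group means of 115.6 ± 14.9 and 115.5 ± 11.4 CPM (SD, n = 7 each), here and below with controls first, and its ratio was 0.999 (95% interval 0.879 to 1.14). DNMT1 was at 9.72 ± 1.17 and 9.23 ± 1.31 CPM, a ratio of 0.949 (0.812 to 1.11). Restricted 1 was lowest for DNMT1, at 6.97 CPM, and control 1 highest, at 12.1 CPM. The median ratio of DNMT3A to DNMT3B, in RPKM, was 29.3 in controls and 55.0 in restricted offspring, a description of the same DNMT3B values.

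**Figure D3:**
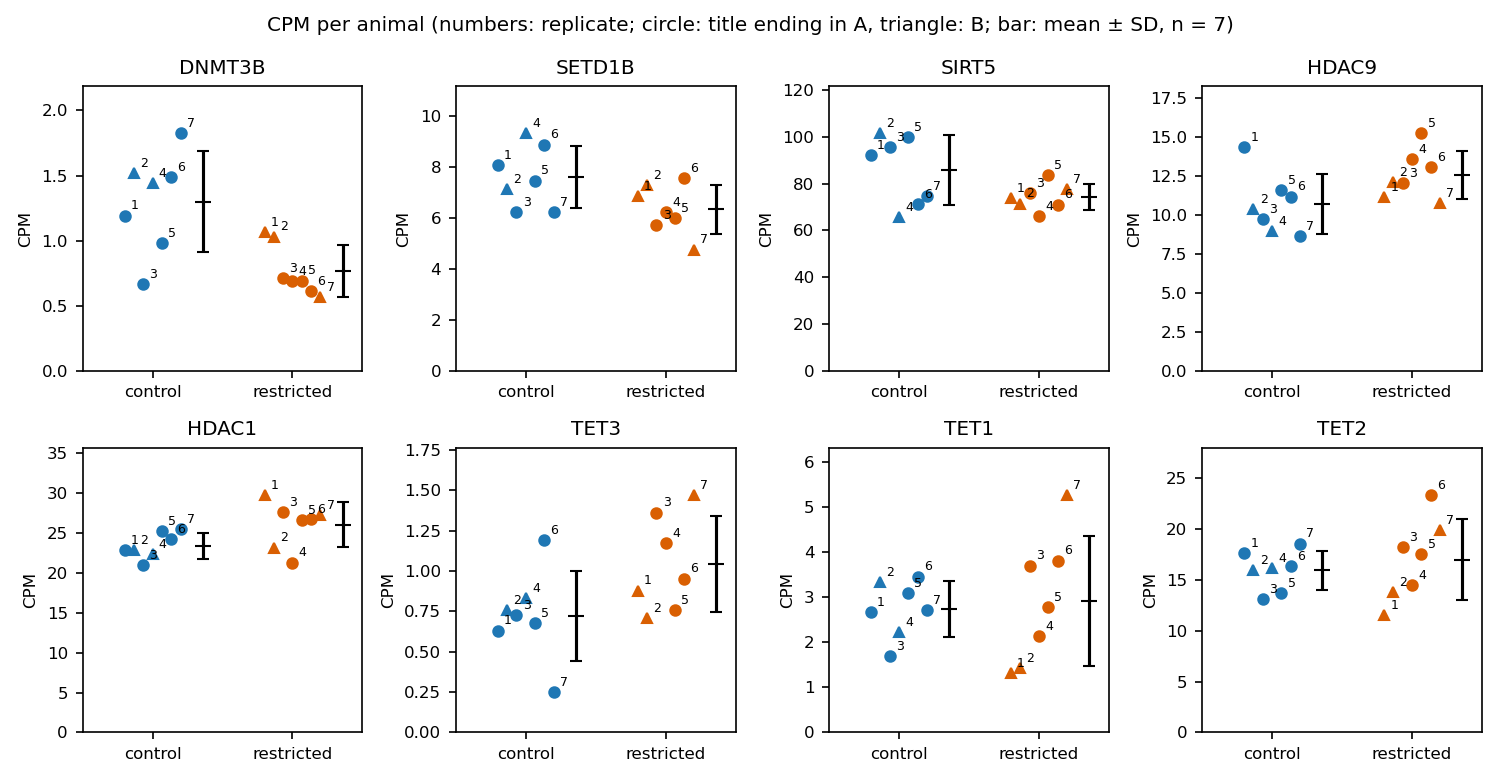
CPM of 8 enzymes in each animal, numbered by replicate, with circles for titles ending in A and triangles for B and a bar for the mean ± SD (n = 7). All restricted values of DNMT3B and SIRT5 lie below the control median, the groups overlap in every panel, and TET1 spreads from 1.32 to 5.26 CPM within the restricted group.

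All 3 TET genes had higher mean CPM in restricted offspring, and none reached an unadjusted p under 0.05 by edgeR. By the fitted ratio 6061 of the 12187 genes tested were higher. TET3 ran from 0.251 CPM (control 7, 4 reads) to 1.19 CPM (control 6) in controls and from 0.709 CPM (restricted 2) to 1.47 CPM (restricted 7, 26 reads) in restricted offspring. Its ratio was 1.43 (0.964 to 2.13), and the unadjusted p was 0.0725. Its log2 ratio went from 0.518 to 0.203 without the 3 interferon-high animals. TET1 had means of 2.73 ± 0.626 and 2.92 ± 1.43 CPM (SD, n = 7 each), and its ratio was 1.07 (0.715 to 1.602). Both its lowest and its highest animal were restricted, at 1.32 CPM (restricted 1) and 5.26 CPM (restricted 7). Its log2 ratio was 0.098, but -0.115 without restricted 7 and -0.075 without the 3 interferon-high animals. TET2 was at 15.9 ± 1.95 and 17.0 ± 4.0 CPM, a ratio of 1.07 (0.875 to 1.30), with restricted 6 highest at 23.3 CPM and restricted 1 lowest at 11.6 CPM.

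All 7 sirtuins had ratios at or below 0.987, with a median log2 of -0.068, and none passed the adjusted test. Of all genes tested 50.3% were lower. Without the 3 interferon-high animals 5 of the 7 sirtuins were lower. When 1 animal was left out, 5 to 7 were lower. SIRT5 ran from 65.8 CPM (control 4) over a median of 92.3 to 101.4 CPM (control 2) in controls, and from 66.2 CPM (restricted 4) over a median of 73.7 to 83.5 CPM (restricted 5) in restricted offspring. The controls fell apart into 4 animals above 90 CPM and 3 below 75 CPM, and the restricted values ran from 66.2 to 83.5 CPM, with 0 of 7 above the control median. The means were 85.8 ± 14.8 and 74.2 ± 5.54 CPM (SD, n = 7 each), a ratio of 0.865 (0.749 to 0.999). Its unadjusted p by edgeR was 0.0489 and its adjusted p was 1, and without the 3 interferon-high animals the ratio was 0.857 with an unadjusted p of 0.0693. SIRT1 had a ratio of 0.931 (0.834 to 1.04), SIRT3 0.945 (0.781 to 1.14) and SIRT2 0.987 (0.886 to 1.10). The ratios of SIRT4, SIRT6 and SIRT7 were 0.958, 0.954 and 0.967. The summed RPKM of the 3 mitochondrial sirtuins was 49.1 ± 6.94 in controls and 43.9 ± 3.34 in restricted offspring, and both its lowest and its highest animal were controls (control 4 and control 3).

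Among the HDAC genes 5 had higher and 6 lower values in restricted offspring, with a median log2 of -0.02. HDAC9, a class IIa enzyme, ran from 8.67 CPM (control 7) over a median of 10.4 to 14.4 CPM (control 1) in controls and from 10.8 CPM (restricted 7) over a median of 12.1 to 15.2 CPM (restricted 5) in restricted offspring. All 7 restricted animals lay above the control median, and control 1, control 5 and control 6 lay within the restricted range. Its ratio was 1.18 (0.994 to 1.39), with an unadjusted p of 0.0579. Without the 3 interferon-high animals, 2 of which were the lowest of their groups, it was 1.155 with an unadjusted p of 0.12. HDAC1, a class I enzyme, was at 23.4 ± 1.64 and 26.0 ± 2.87 CPM (SD, n = 7 each), a ratio of 1.11 (0.992 to 1.25). HDAC5, the class IIa member with the most reads, was at 62.8 ± 6.45 and 55.8 ± 8.06 CPM, a ratio of 0.889 (0.772 to 1.02). Restricted 7, at 39.0 CPM, was the lowest animal for HDAC5, and the other 6 restricted animals lay between 56.3 and 65.4 CPM. Without the 3 interferon-high animals the ratio of HDAC5 was 0.926, with an unadjusted p of 0.200. Among titles ending in A the HDAC5 means were 59.7 CPM in 5 controls and 59.4 CPM in 4 restricted animals, and among those ending in B they were 70.5 CPM in 2 controls and 51.1 CPM in 3 restricted animals. HDAC2 had a ratio of 1.03 (0.923 to 1.14).

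Most demethylases had narrow intervals. Their median log2 ratio was 0.013, with 10 of 16 higher and 6 lower. The 95% interval excluded a 1.25-fold difference in both directions for 14 of 16, all but KDM7A and KDM8. For KDM2A the ratio was 1.01 (0.930 to 1.11), for KDM5C 0.948 (0.835 to 1.08) and for KDM1A 1.04 (0.955 to 1.14). KDM5B, an eraser of the same H3 mark as KDM5C, was at 28.2 ± 1.75 and 30.0 ± 1.64 CPM (SD, n = 7 each), with all 7 restricted animals above the control median and a ratio of 1.07 (0.975 to 1.17). KDM8, a hydroxylase with the same catalytic domain, was at 3.09 ± 0.665 and 3.91 ± 1.33 CPM with a ratio of 1.26 (0.931 to 1.70). Its highest animal was restricted 6, at 6.32 CPM, and its lowest control 3, at 1.99 CPM.

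All 8 KMT genes had ratios below 1, from 0.917 for KMT2A to 0.997 for KMT5A, and none had an unadjusted p under 0.05 by edgeR. Of all genes 50.3% were lower. With voom, with either title letter as a covariate, or without the 3 interferon-high animals, 7 of the 8 were lower. When 1 animal was left out, 6 to 8 were lower. The ratio was 0.934 for KMT2B (0.812 to 1.08), 0.946 for KMT2D (0.804 to 1.11) and 0.955 for KMT2C (0.830 to 1.10). The 2 SETD1 genes, whose proteins work in the same kind of complex, also had ratios below 1. The summed RPKM of KMT2A to KMT2D with SETD1A and SETD1B was 18.2 ± 2.03 for controls and 17.0 ± 1.69 for restricted offspring (SD, n = 7 each). The difference in this sum was not tested. SETD1B ran from 6.22 CPM (control 3) over a median of 7.46 to 9.31 CPM (control 4) in controls and from 4.75 CPM (restricted 7) over a median of 6.22 to 7.55 CPM (restricted 6) in restricted offspring. Of the 7 restricted animals 6 lay below the control median. Its means were 7.61 ± 1.21 and 6.33 ± 0.972 CPM (SD, n = 7 each), a ratio of 0.831 (0.693 to 0.998). By edgeR the unadjusted p was 0.0474 and the adjusted p was 1, and without the 3 interferon-high animals the ratio was 0.85 with an unadjusted p of 0.0888. SETD1A had a ratio of 0.927 (0.812 to 1.06), SETD7 0.974 (0.805 to 1.18) and SETD3 0.996 (0.890 to 1.12).

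**Figure D4:**
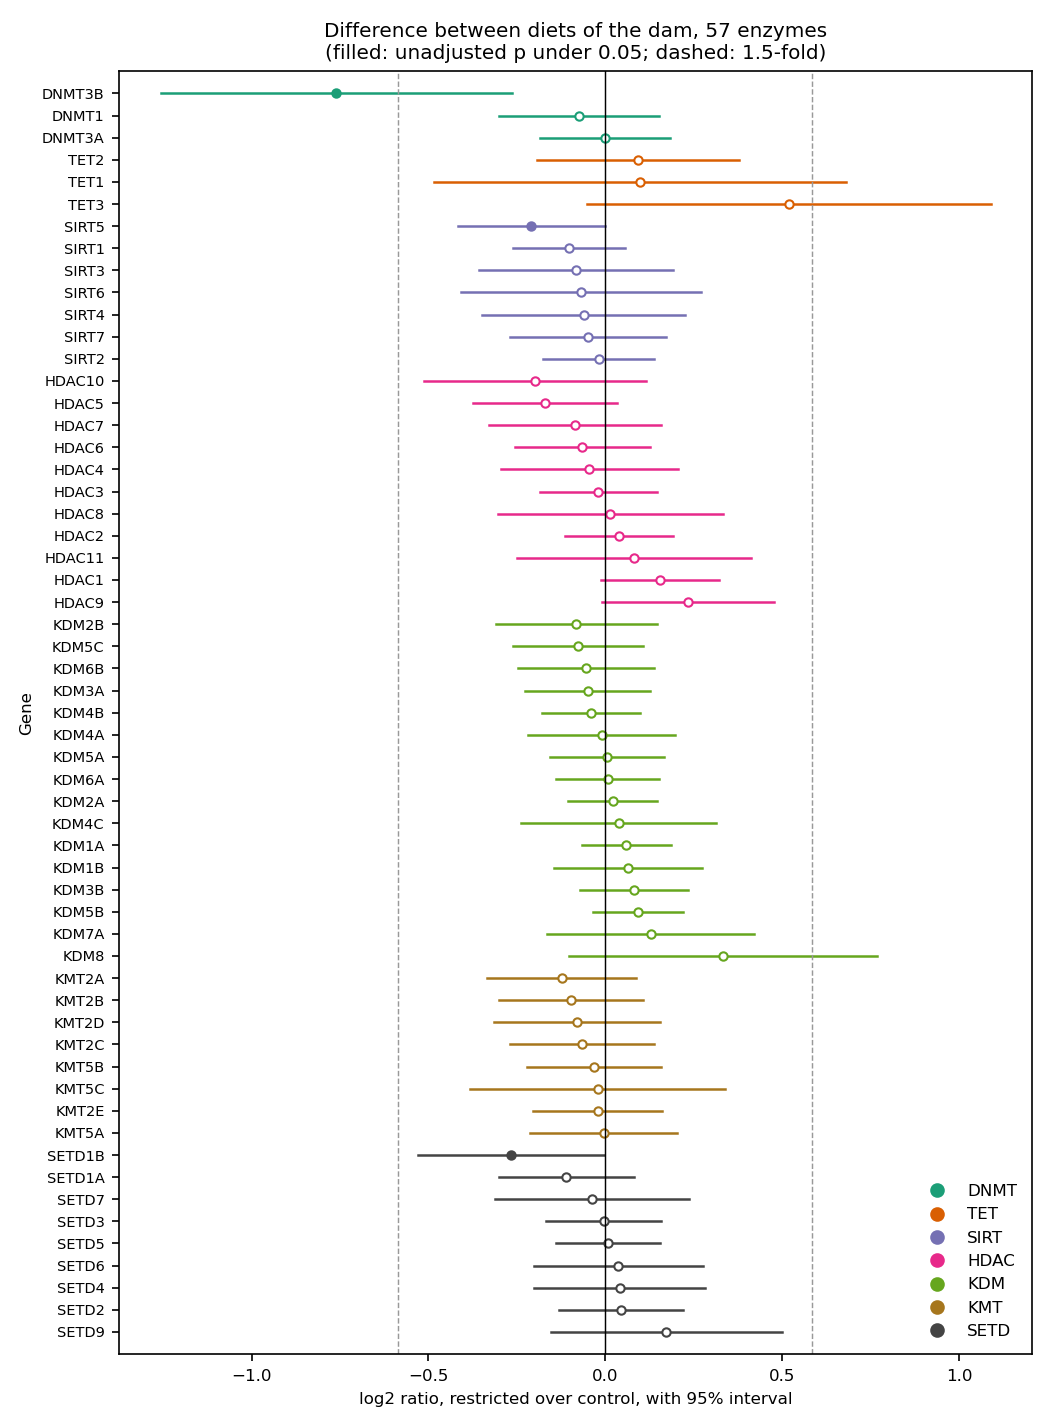
Log2 ratio of restricted over control for each enzyme (point) with its 95% interval (line), by family, with filled points for an unadjusted p under 0.05 and dashed lines at 1.5-fold. Only the intervals of DNMT3B, TET1, TET3 and KDM8 cross a dashed line, and those of DNMT3B, SIRT5 and SETD1B leave out 0, the last 2 narrowly.

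Over all 57 enzymes 34 had lower and 23 higher values in restricted offspring (59.6% lower, against 50.3% of all genes tested), and the median log2 ratio was -0.02, against -0.001 over all genes. With library size scaling, which leaves out the correction for library composition, 44 of 57 were lower, as were 67% of all genes, whose median log2 ratio moved to -0.05. With only the animals whose titles end in A, 26 of 57 and 49.8% of all genes were lower, and the KMT genes were split, with 4 of 8 lower. The 95% intervals excluded a 1.5-fold difference in both directions for 53 of the 57 (93.0%, against 77.8% of all genes), the exceptions being DNMT3B, TET1, TET3 and KDM8. They excluded a 1.25-fold difference for 37 (64.9%, against 42.8%). The enzymes were also more abundant, with a median of 23.3 CPM against 12.1 CPM over all genes. The part of abundance in these shares was not tested. DNMT3B, TET1, TET3 and KDM8 had 16.5, 44.9, 14.1 and 55.0 mean reads per animal, and biological coefficients of variation of 0.219, 0.34, 0.246 and 0.252 in the fit. SIRT6, KMT5C, HDAC10 and HDAC8, with 29.9, 38.8, 45.9 and 49.5 mean reads and coefficients of 0.151, 0.182, 0.163 and 0.165, did exclude a 1.5-fold difference. The part of read number, of these coefficients and of the ratios themselves in the intervals was not tested.

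No animal was extreme across the whole set. The animal with the most genes at its highest level was control 4, with 9 of 57 (15.8%, against 6.79% of all genes), among them KMT2A, KMT2B, KMT2E, SETD1B and HDAC5. The lowest level fell on control 3 and on restricted 1 for 9 genes each (15.8%, against 8.20% and 8.10% of all genes). Restricted 1 was lowest for DNMT1, TET1, TET2, KMT2C, KMT5A, KMT5B, SETD6, SETD7 and KDM3A. Mean deviations from the average over the 57 enzymes lay between -0.108 log2 (restricted 1) and 0.082 log2 (control 6).

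**Figure D5:**
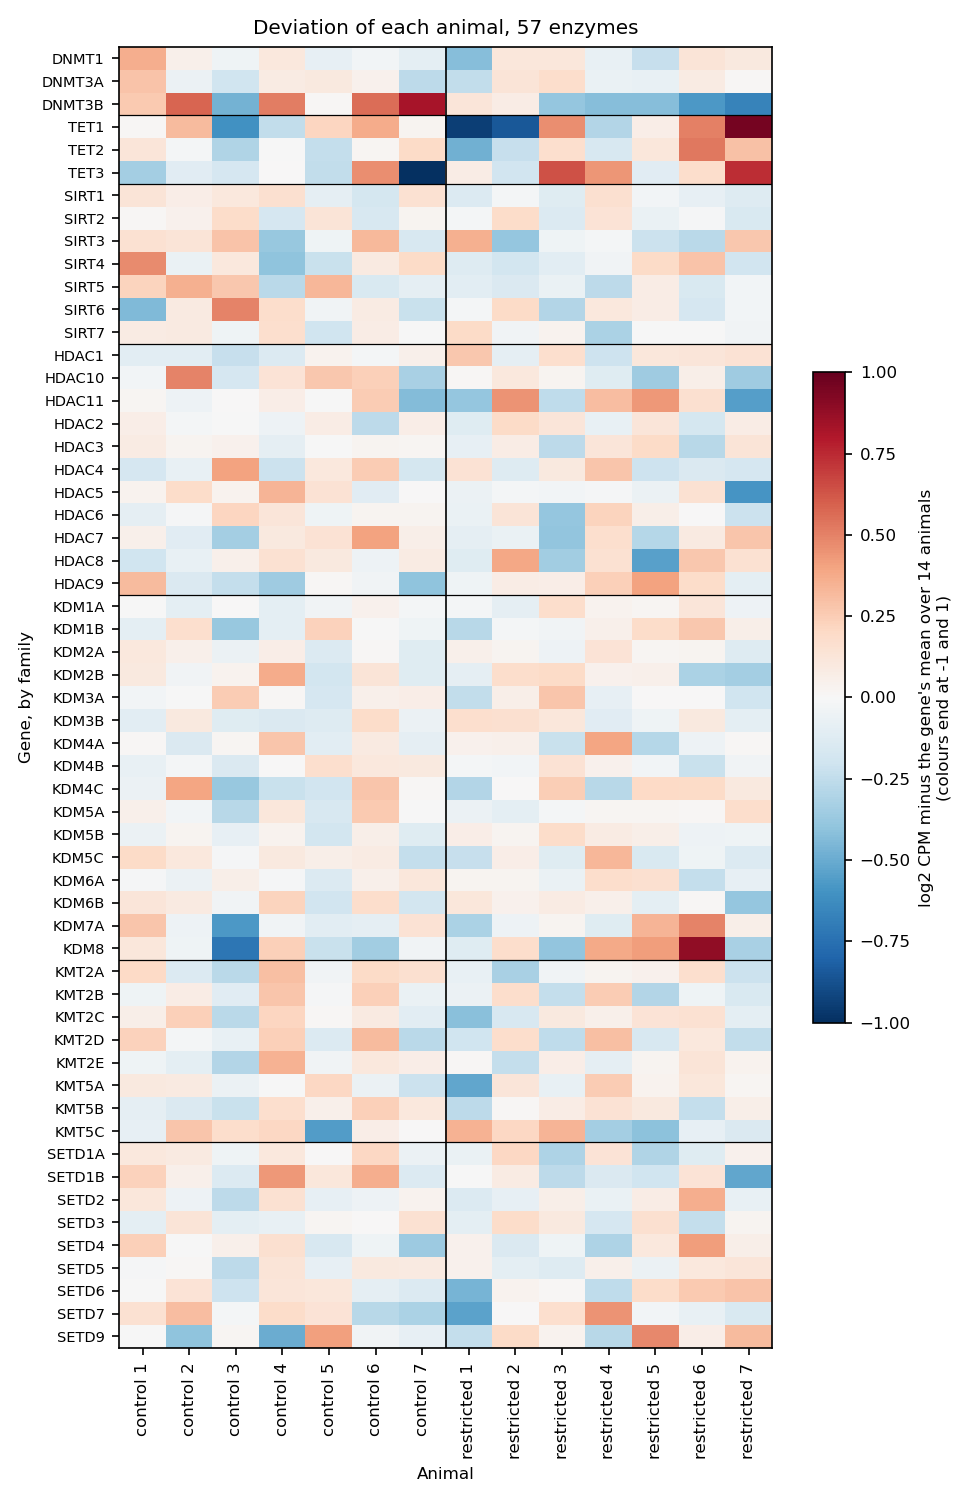
Log2 CPM of each enzyme in each animal minus its mean over 14 animals (red above, blue below), with controls to the left of the vertical line and families divided by horizontal lines. The strongest colours belong to DNMT3B, TET1, TET3 and KDM8, and the column of restricted 1 is blue for DNMT1, TET1, TET2, KMT5A and SETD7.

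The partners and substrates of these enzymes were read from 13 lists with 238 genes, of which 219 were tested. No gene of these lists passed an adjusted p of 0.05 by edgeR. At an unadjusted p under 0.05 there were 8 higher and 5 lower in restricted offspring (5.94%, against 4.25% of all genes), and the median log2 ratio over the 219 genes was 0. Of the 12 partners in the complexes that carry KMT2 and SETD1 proteins, 8 were lower and 4 higher at any p. Of all genes tested 50.3% were lower. At an unadjusted p under 0.05, 2 of the 12 were lower and 0 higher, against 2.08% and 2.17% of all genes. The 2 lower partners were PSIP1, a chromatin tether of KMT2A, and CXXC1, which binds unmethylated CpG in the SETD1 complexes. Their ratios were 0.892 (0.813 to 0.979) and 0.869 (0.769 to 0.983). Of 7 tested partners of maintenance methylation 1 was lower at an unadjusted p under 0.05. It was TRIM28, the corepressor that protects imprinted methylation, at 0.873 (0.775 to 0.984). UHRF1, which guides DNMT1 to hemimethylated DNA, was below the filter with 4 to 92 reads.

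Among 19 tested targets and kinases of class IIa deacetylases, 3 were higher and 0 lower at an unadjusted p under 0.05 by edgeR. Of all genes 2.17% were higher and 2.08% lower at this level. At any p, 10 of the 19 were higher and 9 lower, with a median log2 ratio of 0. The list was chosen with earlier results of these data known. CAMK4, a kinase that drives class IIa deacetylases out of the nucleus, had a ratio of 1.88 (1.33 to 2.64). CAMK2D, another such kinase, had 1.15 (1.03 to 1.28). Their means were 33.6 and 5552 reads per animal. MEF2C, a transcription factor that class IIa deacetylases restrain, lay at 1.14 (1.0 to 1.29). Neither Polycomb complexes (28 tested), deacetylase corepressors (25 tested), methyl-CpG readers (9 tested) nor genes of methylcytosine repair (13 tested) held a gene at an unadjusted p under 0.05. Of 22 tested genes of S-adenosylmethionine and one-carbon metabolism, the source of methyl groups, SHMT2 was higher, with a ratio of 1.15 (1.01 to 1.31). Of 13 of NAD supply, NMNAT2 was higher at 1.46 (1.08 to 1.97) and NUDT12 lower at 0.846 (0.731 to 0.979). The other 4 lists held 1 such gene each. They were HIF1AN, an asparagine hydroxylase listed with other demethylases, at 1.18, the acetyltransferase NAA60 at 1.16, the lysine 9 methyltransferase EHMT1 at 0.884, and GOT1, an aminotransferase that forms or uses 2-oxoglutarate, at 1.25.

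Summed marker levels for non-fibre cells of muscle overlapped between the groups, and their part in the values above was not tested. For endothelium 7 of 8 tested markers had lower values in restricted offspring (median log2 -0.118), and for smooth muscle and pericytes 7 of 8 (-0.169). For adipocytes 6 of 8 were lower, for fibroblasts and macrophages 4 of 8 each, for T and NK cells 2 of 4. For dividing cells 2 of 3 were lower, for satellite cells 2 of 8 (median log2 0.176) and for muscle fibres 2 of 7 (0.106). Of all genes tested 50.3% were lower. All 14 tested interferon response genes had higher values (median log2 0.855), with none at an unadjusted p under 0.05 by edgeR. Their summed CPM was high in restricted 7 (503.9), restricted 4 (198.6) and control 7 (250.4). Without these animals the sums ran from 27.4 to 37.2 CPM in restricted offspring, within the range of 21.1 to 64.1 CPM in controls. In bulk tissue, fewer cells of a type and less RNA per cell cannot be told apart. Summed CPM ran from 20.6 to 27.2 in controls and from 21.5 to 26.6 in restricted offspring for 3 tested markers of dividing cells, and 5 more were below the filter. CDK1 and CCNB1 had at most 9 and 4 reads. The sums ran from 50.5 to 82.1 and from 51.5 to 91.3 CPM for 8 satellite cell markers, from 191.4 to 298.5 and 130.1 to 357.6 CPM for 8 adipocyte markers, and from 13.3 to 27.6 and 14.6 to 35.4 CPM for 8 macrophage markers. They ran from 423.5 to 1075 and from 498.7 to 1193 CPM for fibroblasts, and from 191.7 to 305.8 and 195.1 to 264.0 CPM for endothelium. For smooth muscle and pericytes they ran from 204.8 to 303.6 and from 202.5 to 277.8 CPM, and for T and NK cells from 2.81 to 7.79 and from 3.04 to 10.1 CPM. At an unadjusted p under 0.05 by edgeR, NCAM1 of the satellite cell list was higher (ratio 1.62) and LMOD1 of the smooth muscle list lower (0.758) in restricted offspring.

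The last letter of the sample titles, A in 9 and B in 5 animals, has no meaning given in the labels. With diet as a covariate, edgeR placed 0 of 57 enzymes and 0 of 12187 genes (0%) past an adjusted p of 0.05 for this letter. There were 2 enzymes, or 722 genes (5.92%), at an unadjusted p under 0.05. They were SIRT4, at a mean of 5.87 CPM in A and 4.69 CPM in B, and KDM1A, at 27.5 and 25.5 CPM. The ratio of B over A was 0.802 (0.666 to 0.965) for SIRT4 and 0.9195 (0.8455 to 0.9999) for KDM1A. None of the 57 enzymes had letter groups without overlap (0.0985% of all genes). DESeq2 placed 20 genes (0.175%) past the threshold for the letter, with 0 enzymes among them, and limma's voom 0 (0%). At an unadjusted p under 0.05 they held 1 and 2 enzymes, against 5.95% and 6.77% of all genes.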

How the data were processed

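The authors deposited raw counts, not normalized, with a column for each animal and a gene length in bases, which was used for RPKM. Per the submitters' processing notes, FastQC, HISAT2, featureCounts and edgeR were used with the build ARS-UCD1.2. The sources used here do not give tool versions, annotation release, strand setting or the handling of multimapped reads. Reads of overlapping genes may thus be shared or lost. In a RefSeq gene table of ARS-UCD2.0 all 57 symbols matched and 23 overlap another gene. For 3 of these the other gene is in the count table: HDAC7, KDM1B and SIRT3 overlap SLC48A1, TPMT and NBAS. Because builds differ, no coordinates are given, and no sequences were used here.

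Groups were taken from the treatment label, and replicate numbers, given by accession order, pair nothing. Genes were filtered with filterByExpr (minimum count 10, minimum total 15) of edgeR 4.0.16 under R 4.3.3, libraries were scaled by TMM, and the diets were compared by the quasi-likelihood F test without covariates, with Benjamini-Hochberg adjustment over 12187 genes at 0.05. The title letter was tested with diet as a covariate. Ratios are restricted over control from the fit. The 95% intervals come from the F statistic and the t distribution. CPM and RPKM are scaled the same way, and log2 CPM use a prior count of 2. DESeq2 1.42.0 and limma 3.58.1 served as alternatives. Other scalings and filters, title letters as covariates or subsets, and leaving out the interferon-high animals together or each animal in turn were also tried.

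Genes given in detail were all DNMT, TET and SIRT genes, the 2 with most reads and the 2 with the smallest p in each other family, all with an unadjusted p under 0.05, and the 3 with the largest and smallest dispersion. Levels of other family members and of KMT5A, KMT5B, HDAC3 and HDAC8 are given to show the order within families. From each other list, at most 2 genes with an unadjusted p under 0.05 were named. MEF2C, HDAC10, ACTA1, CKM and 3 genes below the filter (UHRF1, CDK1, CCNB1) fall outside this rule and were chosen after their values were seen. The enzymes, lists and tests were chosen with earlier results of these data known.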

Additional observations from a re-analysis of the deposited data

Results flagged for a closer look

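In 6 of 114 groups of 7 animals (57 enzymes in each diet group), 1 animal lay apart from the other 6 by more than Dixon's 95% limit, a gap to its neighbour of over 0.568 of the range. Chance gives about 1 in 20 groups. In controls, DNMT1 was high in control 1, at 12.1 CPM with the next animal at 10.1 CPM, and HDAC2 was low in control 6, at 53.2 CPM against 61.7 CPM. In restricted offspring, HDAC5 was low in restricted 7, at 39.0 CPM against 56.3 CPM for the next animal. KDM5A was high in restricted 7 (56.6 CPM against 51.0 CPM), SETD2, which methylates lysine 36 of histone H3, in restricted 6 (77.8 CPM against 63.5 CPM), and SIRT1 in restricted 4 (20.9 CPM against 18.4 CPM). Restricted 7 and restricted 4 were 2 of the 3 interferon-high animals. Without the 3 the diet ratio went from 0.889 to 0.926 for HDAC5, from 1.003 to 0.976 for KDM5A and from 0.931 to 0.9235 for SIRT1.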

How the results depend on the processing

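No enzyme passed an adjusted p of 0.05 for diet in any of 26 alternatives (smallest adjusted p 0.801), 14 of which leave out 1 animal, or for the title letter in any of 22. For diet, the number of enzymes at an unadjusted p under 0.05 was 3, and 1 without a filter on low counts and with edgeR's exact test. It ran from 1 (without control 5 or restricted 3) to 4 when 1 animal was left out. Genes past the adjusted threshold numbered 1 with DESeq2 and 1 with only titles ending in A. DNMT3B had an unadjusted p under 0.05 in 25 of 26 alternatives, SETD1B in 12 and SIRT5 in 6. For 12 of the 30 enzymes given in detail the log2 ratio changed sign in at least 1 alternative, DNMT3A (13 of 26) and SETD3 (9) most often. Library size scaling moved the median log2 of all genes from -0.001 to -0.05, and those of the KDM genes (0.013 to -0.038) and SETD genes (0.006 to -0.044) by a like amount, across 0. The KDM median also changed sign without control 5, and the SETD median in 5 other alternatives. That of the DNMT genes did so with only titles starting with Y, and that of the HDAC genes without control 3 or restricted 3.

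For the title letter, 2 enzymes had an unadjusted p under 0.05, and 1 with library size scaling, a mean CPM of at least 1, DESeq2 or no diet covariate, and from 1 to 3 when 1 animal was left out. The median log2 ratio of the enzymes was -0.004, and 0.067 with library size scaling. Genes past the threshold for the letter numbered 0, but 1 without a filter, 20 with DESeq2, 5 without control 7, restricted 4 and restricted 7, and 0 to 2 without 1 animal (2 without control 4 or control 7). The causes were not tested. The exact test takes no covariate and was not run for the letter. No paired analysis was possible because the labels give no replicate numbers shared between the diets. DNMT3B and TET3 had the fewest reads, with means of 16.5 and 14.1 per animal, and TET3 was below a mean CPM of 1.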
